A study of Mus musculus with 28 samples.

Results

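The enzymes described here are those that carry the reducing equivalents of cytosolic NADH to the mitochondrial respiratory chain. They are *Gpd1*, *Gpd1l* and *Gpd2* of the glycerol phosphate shuttle and *Mdh1*, *Got1* and *Got2* of the malate-aspartate shuttle. They were picked by gene symbol, 6 of the 12732 genes in the expression table, and all 6 were above the filter on low values. RNA from tibialis anterior (TA), a hindlimb muscle made mainly of fast-twitch fibers, had been sequenced in 28 mice, 14 of each genotype. The *mfn1,2* mice were Myl1-Cre; Mfn1 −/flox; Mfn2 −/flox and so lost both mitofusins, the proteins that fuse mitochondrial outer membranes, in cells where the *Myl1* promoter drives Cre, which are chiefly fast-twitch fibers. The wt mice were littermates of genotype Mfn1 +/flox; Mfn2 +/flox without Cre, and a floxed mDendra reporter allele was present in the cross. Both sexes were used. By the sample labels each genotype had 4 mice at 4 weeks, 4 at 6 weeks, 4 at 8 weeks and 2 at 10 weeks, but the table's columns carry genotype and a running number only (DM1 to DM14 and WT1 to WT14), so ages are pooled in every comparison. Each mouse muscle also holds the cells in which the Cre is not active, and in bulk RNA fewer cells of a type cannot be told apart from less RNA per cell.

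Glycolysis reduces NAD to NADH in the cytosol, and the inner mitochondrial membrane does not let NADH through. In the glycerol phosphate shuttle, GPD1 uses NADH to turn dihydroxyacetone phosphate into glycerol 3-phosphate, which GPD2, a flavoprotein on the outer face of the inner membrane, oxidizes back while passing the electrons to ubiquinone. In the malate-aspartate shuttle, MDH1 turns oxaloacetate and NADH into malate, which enters the matrix and is oxidized there by MDH2. GOT2 converts the oxaloacetate to aspartate for export, and GOT1 turns that aspartate back into oxaloacetate in the cytosol. Lactate dehydrogenase is the third route by which the cytosol regains NAD, and the glycerol phosphate route is known for its high activity in fast-twitch muscle.

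The libraries set the scale on which these genes can be compared. The deposited values are a normalized signal whose sums were 326643 to 419290 in *mfn1,2* libraries and 426029 to 564123 in wt libraries, with 24.9 to 35.5% and 49.4 to 71.3% of the sum on genes of mtDNA. Libraries were therefore brought to a common scale by median-of-ratios factors from 11693 genes, and all values below are on this scale unless called deposited. On the log2 scale *Mfn1* was at −2.04 in *mfn1,2* relative to wt muscle and *Mfn2* at −0.66, although *Mfn2* turned positive under scaling to the same total (0.40) and to *Actb* (0.18). Of 10819 genes tested with limma, 28.2% rose and 24.9% fell in *mfn1,2* muscle, judged by a Benjamini-Hochberg adjusted *P* under 0.01, the threshold for "rose" and "fell" throughout. The wt libraries WT6, WT8, WT9 and WT13 and the *mfn1,2* library DM8 clustered apart from the rest of their genotype, and values without them are given where they matter.

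All 6 enzymes passed this test, and these members of the 2 shuttles moved in opposite directions except for *Gpd1l*. This does not hold for the whole malate-aspartate shuttle, of which *Mdh2* (−0.59) and *Slc25a11* (−0.62) fell on this scale and *Slc25a12* did not pass. *Gpd1* and *Gpd2* of the glycerol phosphate shuttle fell. *Mdh1*, *Got1* and *Got2* of the malate-aspartate shuttle rose, and *Gpd1l* rose by the smallest amount of the 6. These 4 rises and 2 falls stand against the broad background just given. The stricter rule, a Bonferroni-adjusted *P* under 0.01 with a log2 fold change beyond 1 in either direction, was met by *Gpd1* and *Gpd2*, in a table where 5.12% of genes met it downward and 6.02% upward. The median log2 fold change of the 6 enzymes was 0.39, beside 0.026 over all genes tested.

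**Figure D1:**
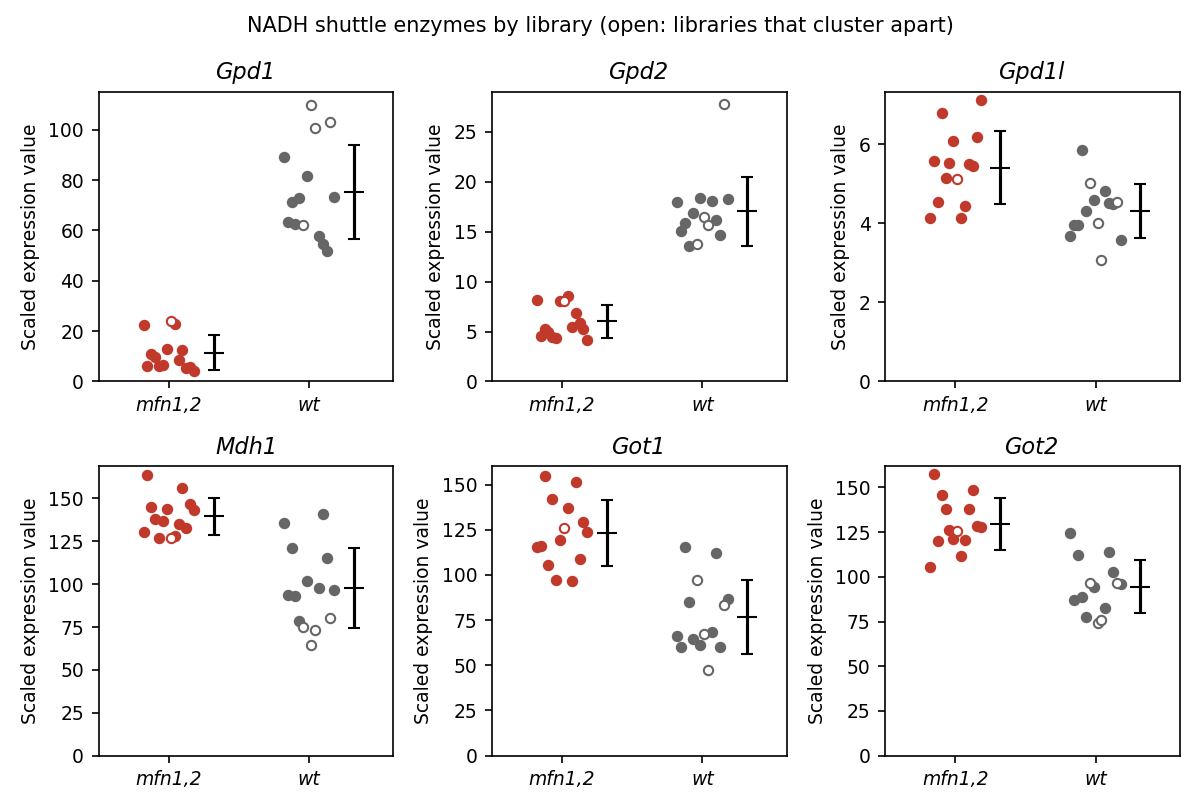
Scaled expression values of the 6 enzymes on linear axes that start at 0. Each point is 1 library of *mfn1,2* (left, red) or wt (right, grey) muscle, open points are the libraries that cluster apart, and the black mark with bars is the mean ± SD of 14 libraries. All *mfn1,2* points for *Gpd1* and *Gpd2* lie below all wt points, while for the other 4 genes the genotypes overlap and the *mfn1,2* mean is higher.

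*Gpd1* encodes the cytosolic, NAD-linked glycerol 3-phosphate dehydrogenase. The *mfn1,2* libraries ran over 4.30, 9.05 and 24.1 (lowest, median and highest), and the wt libraries over 51.7, 72.1 and 109.8. The genotypes did not overlap, as was so in the same direction for 5.08% of all genes tested. Means were 11.3 ± 6.96 in *mfn1,2* and 75.3 ± 18.9 in wt muscle (SD, *n* = 14 each), a 6.65-fold lower mean, with −2.91 ± 0.22 (SE) as the log2 fold change in limma (adjusted *P* = 2.07e-12).

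Within *mfn1,2* muscle, *Gpd1* was the most variable of the 6 enzymes, with a coefficient of variation of 61.5%, compared with 25.0% in wt muscle. The libraries DM1, DM8 and DM9 held 22.6, 24.1 and 22.9, and the other 11 *mfn1,2* libraries were at 12.9 or below. Of these only DM8 clustered apart. Among wt libraries the 3 highest, WT8, WT13 and WT9, were among the 4 that clustered apart, whose median was 101.9 beside 67.2 in the other 10 wt libraries.

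*Gpd2*, which encodes the FAD-linked mitochondrial partner, fell less than *Gpd1*. Its values were 4.14, 5.38 and 8.61 (lowest, median and highest) in *mfn1,2* libraries and 13.6, 16.3 and 27.8 in wt libraries. Here too no *mfn1,2* library reached the lowest wt library. The highest wt value was that of WT13, and the second highest was 18.3. The mean was 6.01 ± 1.61 in *mfn1,2* and 17.1 ± 3.48 in wt muscle (SD, *n* = 14 each), 2.84-fold lower in *mfn1,2* muscle, with −1.51 ± 0.12 (SE) as the log2 fold change in limma (adjusted *P* = 1.85e-12). With every library brought to the same total, the change was −0.47 and no longer passed (adjusted *P* = 0.0158), where the median gene shifted up by 1.04.

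*Gpd1l* encodes a close relative of GPD1 with the same kind of activity. Its values were 4.14, 5.48 and 7.12 (lowest, median and highest) in *mfn1,2* libraries and 3.07, 4.40 and 5.85 in wt libraries. The ranges overlapped widely, with 4 *mfn1,2* libraries above the highest wt library and 6 wt libraries below the lowest *mfn1,2* library. The mean was 5.41 ± 0.920 in *mfn1,2* and 4.31 ± 0.689 in wt muscle (SD, *n* = 14 each), 1.26-fold higher in *mfn1,2* muscle, with 0.32 ± 0.089 (SE) as the log2 fold change in limma (adjusted *P* = 0.00265). This rise was the least secure of the 6, at 0.24 (adjusted *P* = 0.0229) under upper-quartile scaling and 0.30 (adjusted *P* = 0.0101) without the 5 libraries that clustered apart.

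*Mdh1*, the cytosolic malate dehydrogenase, had the highest mean of the 6 per length in both genotypes, although by median it was level with *Got2* in wt libraries. It had 126.7, 137 and 164 (lowest, median and highest) in *mfn1,2* libraries and 64.6, 95.0 and 140.8 in wt libraries. The *mfn1,2* libraries were tightly grouped, 6 of them were above every wt library, and 12 wt libraries were below every *mfn1,2* library. Complete separation upward, seen in 6.15% of genes tested, was reached by none of the 4 enzymes that rose. The mean was 139 ± 11.01 in *mfn1,2* and 97.7 ± 23.4 in wt muscle (SD, *n* = 14 each), 1.43-fold higher in *mfn1,2* muscle, with 0.55 ± 0.095 (SE) as the log2 fold change in limma (adjusted *P* = 1.16e-05). The 4 wt libraries that clustered apart were low, at 64.6 to 80.3. Without the 5 libraries that clustered apart the log2 fold change was 0.40 and still passed.

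*Got1* encodes the cytosolic aspartate aminotransferase and had the largest rise of the 6 enzymes. Its values were 96.8, 122 and 155 (lowest, median and highest) in *mfn1,2* libraries and 47.3, 68.1 and 115 in wt libraries. Of the *mfn1,2* libraries 10 were above the highest wt library, and 11 wt libraries were below the lowest *mfn1,2* library. The mean was 123 ± 18.4 in *mfn1,2* and 76.8 ± 20.4 in wt muscle (SD, *n* = 14 each), 1.603-fold higher in *mfn1,2* muscle, with 0.71 ± 0.11 (SE) as the log2 fold change in limma (adjusted *P* = 2.60e-06).

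*Got2* encodes the mitochondrial aspartate aminotransferase. It had 105.6, 127 and 158 (lowest, median and highest) in *mfn1,2* libraries and 74.5, 95.2 and 124 in wt libraries. The genotypes overlapped, with 9 *mfn1,2* libraries above the highest wt library and 11 wt libraries below the lowest *mfn1,2* library. The mean was 129.7 ± 14.5 in *mfn1,2* and 94.5 ± 14.95 in wt muscle (SD, *n* = 14 each), 1.37-fold higher in *mfn1,2* muscle, with 0.46 ± 0.077 (SE) as the log2 fold change in limma (adjusted *P* = 5.32e-06).

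Some of these loci share transcript sequence with other genes, and the sources do not say whether the counting used strand. Of the windows of 75 bases in *Got2* transcripts, 19.3% occur in another gene, among them the pseudogene *Got2-ps1*. That gene had 21.9, 26.2 and 34.1 in *mfn1,2* and 17.0, 26.3 and 40.8 in wt libraries (lowest, median and highest), a log2 fold change of 0.028 by limma (adjusted *P* = 0.820), so the values of *Got2* are less certain than those of *Got1*, which shares no window. *Gpd1* shares 7.92% of its windows with the antisense gene *Gm16537*, whose highest value was 0.296 in *mfn1,2* and 0.799 in wt libraries. The gene *Wdpcp* overlaps exons of *Mdh1* on the opposite strand and stayed at or under 3.99 in *mfn1,2* and 1.35 in wt libraries, far below *Mdh1*. *Gpd2* shares 5.14% with an antisense gene, and *Gpd1l* shares 0.16% with *Immt*.

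Promoters of the enzymes that rose together and of *Gpd2*, 250 bases before to 50 after the annotated start, are shown from RefSeq (GRCm38.p6, not the mm9 of the files) so that the sequence upstream of each can be read beside its change. Promoters were matched for 5 of the 6 genes, 6 promoters in all, as *Gpd2* has a pair of them. No promoter was matched for *Gpd1*, so its sequence was not searched. Capitals mark matches on either strand to ACGTG or GCGTG, the core of the hypoxia response element, to TGATGNAA, the composite element bound by ATF4 with C/EBP factors, and to AAGGTCA, the half-site of estrogen-related receptors.
*Got1* promoter, chr19:43524556-43524855, minus strand: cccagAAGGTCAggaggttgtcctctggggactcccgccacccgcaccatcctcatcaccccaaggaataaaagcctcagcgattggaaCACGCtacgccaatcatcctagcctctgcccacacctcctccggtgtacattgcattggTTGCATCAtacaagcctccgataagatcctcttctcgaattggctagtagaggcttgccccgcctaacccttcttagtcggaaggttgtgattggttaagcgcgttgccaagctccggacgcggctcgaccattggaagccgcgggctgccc
*Mdh1* promoter, chr11:21571885-21572184, minus strand: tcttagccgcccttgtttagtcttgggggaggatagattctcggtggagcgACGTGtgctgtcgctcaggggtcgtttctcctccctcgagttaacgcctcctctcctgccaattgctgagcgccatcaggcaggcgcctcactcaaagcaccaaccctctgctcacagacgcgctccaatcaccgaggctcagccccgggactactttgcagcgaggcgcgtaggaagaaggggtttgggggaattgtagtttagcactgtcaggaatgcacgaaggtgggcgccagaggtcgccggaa
*Got2* promoter, chr8:95888352-95888651, minus strand: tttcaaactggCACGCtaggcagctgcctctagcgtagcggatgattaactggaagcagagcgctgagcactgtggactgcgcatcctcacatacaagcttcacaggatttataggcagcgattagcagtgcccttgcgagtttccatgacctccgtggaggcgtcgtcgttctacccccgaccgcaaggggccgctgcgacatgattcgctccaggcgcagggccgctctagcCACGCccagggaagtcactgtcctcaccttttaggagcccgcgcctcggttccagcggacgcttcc
*Gpd2* promoter, chr2:57238132-57238431, plus strand: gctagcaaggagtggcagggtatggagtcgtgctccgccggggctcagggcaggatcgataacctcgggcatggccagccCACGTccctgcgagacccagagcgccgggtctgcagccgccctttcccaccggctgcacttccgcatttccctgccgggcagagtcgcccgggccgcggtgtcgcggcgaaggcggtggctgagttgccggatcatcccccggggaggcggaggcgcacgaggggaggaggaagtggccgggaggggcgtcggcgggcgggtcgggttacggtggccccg

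The *Got1* promoter held the reverse complement of TGATGNAA at position −102, a match found in 3.97% of 32851 RefSeq promoters of this length, and AAGGTCA at −245, found in 4.72%. No other of the 6 promoters held either. A match to ACGTG or GCGTG was in 5 of the 6, beside 43.8% of all promoters, and these included *Got1*, *Mdh1* and *Got2*, which rose, and the second promoter of *Gpd2*, which fell. The first *Gpd2* promoter held none of the motifs, and the *Gpd1l* promoter held CACGTG, where both strands of ACGTG overlap, and one GCGTG. The NRF1 consensus, also searched on both strands, was in 0 of the 6 promoters and in 4.6% of all. The motifs were chosen after these sequences had been seen, and a match describes the letters, not a bound site.

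Ratios of 2 enzymes in the same library do not depend on how libraries are scaled. *Mdh1* and *Got1* were each set over *Gpd1* in this way. *Gpd1* already separated the genotypes alone, at a log2 fold change of −2.91, so its fall is the larger part of both differences. The ratios therefore do not measure the balance of whole shuttles. *Mdh1* over *Gpd1* had a median of 15.02 in *mfn1,2* libraries (range 5.25 to 32.7) and 1.39 in wt libraries (range 0.589 to 2.57). *Got1* over *Gpd1* had a median of 13.04 in *mfn1,2* libraries (range 5.10 to 28.3) and 1.05 in wt libraries (range 0.471 to 2.05). Neither ratio overlapped between the genotypes. On the log2 scale the differences were 3.46 (standard error 0.28) and 3.62 (standard error 0.27), each at an adjusted *P* of 1.2e-05 over 6 ratios, from a raw *P* of 1e-05, the smallest value that a 2-sided permutation test with 100000 resamples can give.

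Within the glycerol phosphate shuttle the ratios moved as well. *Gpd2* over *Gpd1* had a median of 0.641 in *mfn1,2* libraries (range 0.335 to 1.11) and 0.229 in wt libraries (range 0.151 to 0.314), with no overlap and a log2 difference of 1.39 (standard error 0.16, adjusted *P* = 1.2e-05, permutation test). *Gpd1l* over *Gpd1* had a median of 0.612 in *mfn1,2* libraries (range 0.184 to 1.64) and 0.0593 in wt libraries (range 0.0314 to 0.0954), again with no overlap and a log2 difference of 3.22 (standard error 0.30, adjusted *P* = 1.2e-05, permutation test). The share of *Gpd1l* in the sum of *Gpd1* and *Gpd1l* was 15.3%, 37.9% and 62.3% (lowest, median and highest) in *mfn1,2* libraries, and 2.96%, 5.46% and 8.54% in wt libraries. *Gpd1*, which separated the genotypes alone, is in both ratios and in this share. Its log2 fold change was −2.91 and that of *Gpd1l* 0.32, so the fall of *Gpd1* is the larger part of the *Gpd1l* ratio and share. *Got2* over *Got1*, mitochondrial over cytosolic aminotransferase, had a log2 difference of −0.25 (standard error 0.11, adjusted *P* = 0.0369, permutation test), which did not pass, and its genotypes overlapped.

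**Figure D2:**
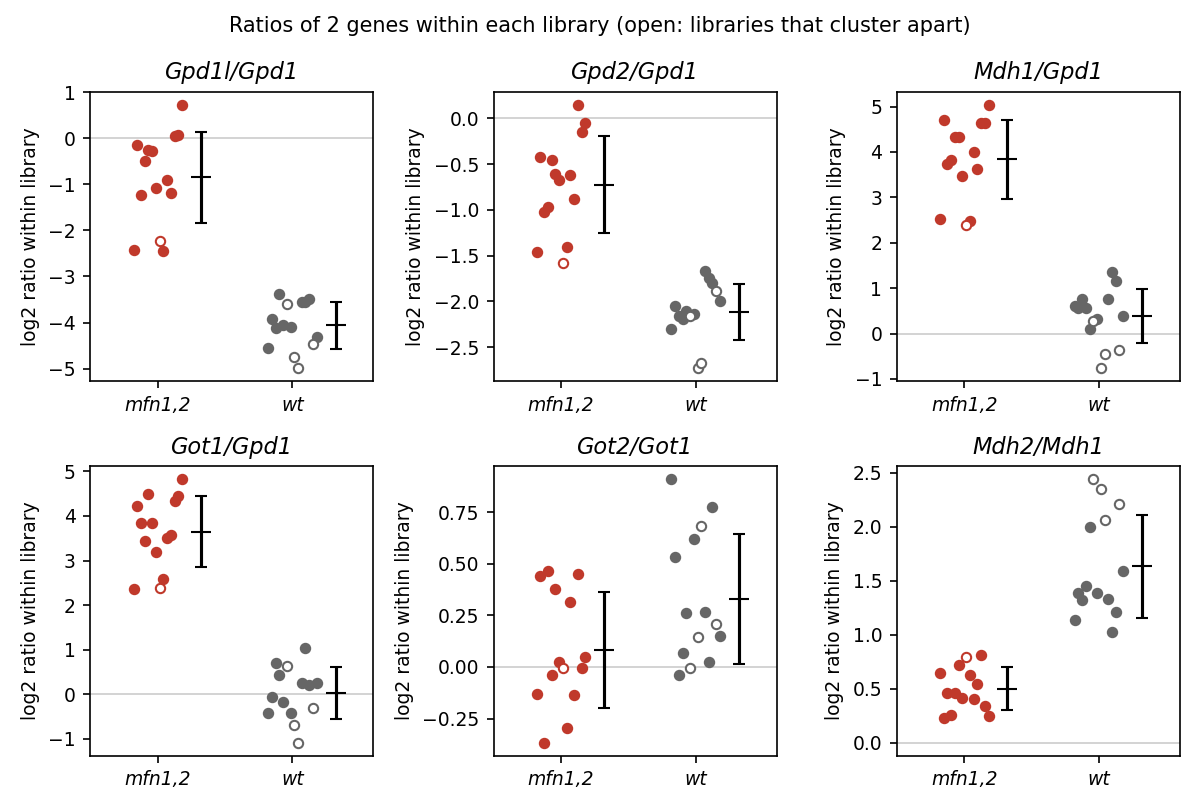
Log2 ratio of 2 genes within each library, for the 6 ratios compared. Points are *mfn1,2* (left, red) and wt (right, grey) libraries, open points cluster apart, and bars are the mean ± SD. The genotypes are separate in 5 of the 6 ratios and overlap for *Got2* over *Got1*. Each of those 5 holds *Gpd1* or *Mdh2*, which alone separated the genotypes in scaled values, and the share over other gene pairs was not taken.

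The order of the enzymes' levels, on a scale that falls with exonic length as FPKM does, was *Mdh1*, *Got2*, *Got1*, *Gpd1*, *Gpd2* and *Gpd1l* by mean in both genotypes, but the gaps differed. *Got1* was above *Gpd1* in 14 of 14 *mfn1,2* libraries, against 7 of 14 wt libraries, where these neighbours were level. *Got2* was above *Got1* in 7 of 14 *mfn1,2* and 12 of 14 wt libraries. *Gpd2* was above *Gpd1l* in 8 of 14 *mfn1,2* and 14 of 14 wt libraries, so the low end of the order was level in *mfn1,2* muscle and distinct in wt muscle.

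Of the other proteins of the malate-aspartate shuttle, 3 were tested, of which 2 fell and 0 rose, while 0 fell and 1 rose in the deposited values, at the same total and under *Actb* scaling. *Mdh2*, the malate dehydrogenase of the matrix, averaged 197 ± 22.2 in *mfn1,2* and 299 ± 46.7 in wt muscle (SD, *n* = 14 each) and fell without overlap of the genotypes (log2 fold change −0.59, adjusted *P* = 7.68e-08 from limma). *Slc25a11*, the carrier that exchanges malate for 2-oxoglutarate, averaged 42.2 ± 6.68 in *mfn1,2* and 67.4 ± 25.9 in wt muscle and fell (log2 fold change −0.62, adjusted *P* = 1.27e-04 from limma). Both turned positive in the deposited values, under scaling to the same total and under scaling to *Actb*, where *Mdh2* was at 0.045, 0.46 and 0.24 and *Slc25a11* at 0.021, 0.44 and 0.22, and where the median gene was also up. With libraries brought to the same total of nuclear genes, *Slc25a11* was at −0.47 and no longer passed (adjusted *P* = 0.0180 from limma). *Mdh2* was at −0.45 there and still passed.

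*Slc25a12*, the aspartate-glutamate carrier found in muscle, averaged 64.4 ± 13.3 in *mfn1,2* and 59.1 ± 12.8 in wt muscle and did not pass (log2 fold change 0.12, adjusted *P* = 0.385 from limma), but rose under these 3 other scalings (0.76, 1.18 and 0.96). *Slc25a13*, the carrier known from liver, was under the filter, with a mean of 0.363 in *mfn1,2* and 0.0587 in wt muscle, and was not tested. The ratio of *Mdh2* to *Mdh1*, which is free of scaling, had a median of 1.38 in *mfn1,2* libraries (range 1.17 to 1.76) and 2.68 in wt libraries (range 2.03 to 5.42). The genotypes did not overlap, with a log2 difference of −1.14 (standard error 0.14, adjusted *P* = 1.2e-05, permutation test). The 4 wt libraries that clustered apart were the highest for this ratio, and without the 5 libraries that clustered apart the log2 difference was −0.91.

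The 6 enzymes kept their directions under all 5 other library scalings. *Gpd1* ran between −2.99 and −1.86 on the log2 scale, *Gpd2* between −1.59 and −0.47, *Gpd1l* between 0.24 and 1.35, *Mdh1* between 0.47 and 1.603, *Got1* between 0.63 and 1.77, and *Got2* between 0.38 and 1.52. The median over all genes tested ran from −0.052 under upper-quartile scaling to 1.04 under scaling to the same total, so these values are best read against it. In the deposited values themselves 14 of 14 *mfn1,2* libraries were above every wt library for *Mdh1*, *Got1* and *Got2*, 13 were below every wt library for *Gpd1*, and 8 for *Gpd2*. The median gene was up by 0.64 in the deposited values. The share of all genes that separated there was not taken, so these counts have no background beside them.

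**Figure D3:**
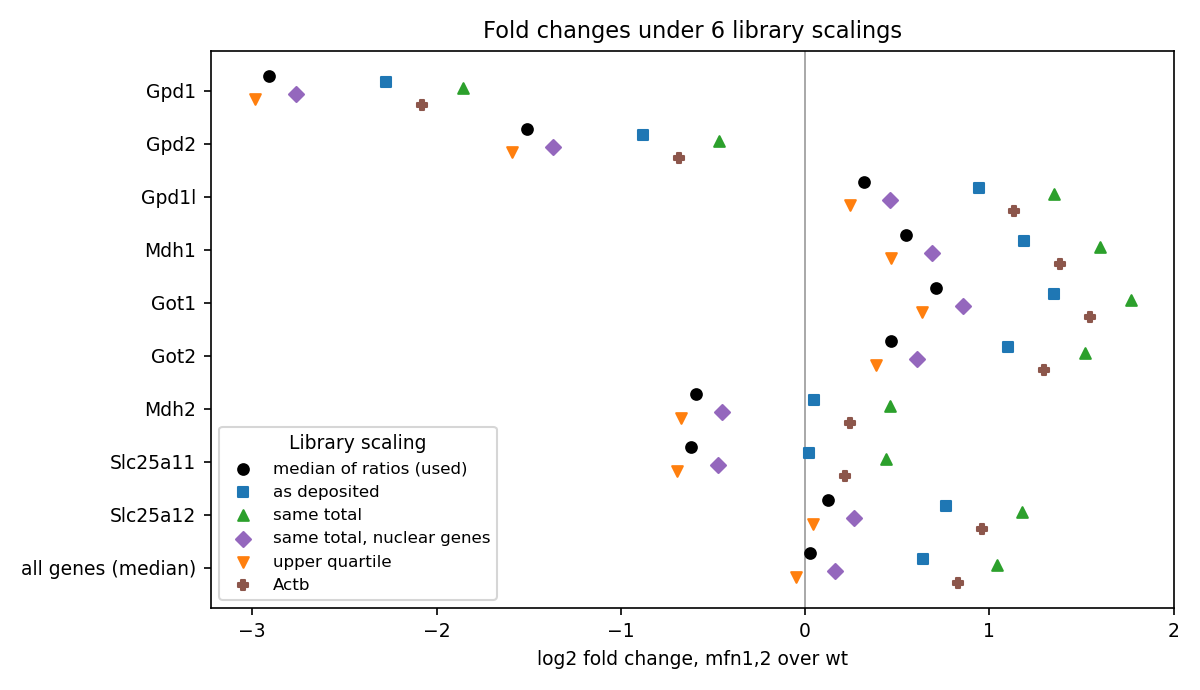
Log2 fold change of *mfn1,2* over wt muscle for the 6 enzymes, the 3 tested partners of the malate-aspartate shuttle and the median over all genes tested. Each symbol is 1 library scaling. The 6 enzymes stay on their side of 0 under all 6 scalings, *Mdh2* and *Slc25a11* do not, and all rows move together with the median gene.

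Pairs of enzymes were compared across the libraries of each genotype, leaving out those that clustered apart, with 30 pairs in all and Benjamini-Hochberg adjustment over them. *Gpd1* and *Gpd2* varied together among 13 *mfn1,2* libraries (Pearson's r 0.860, permutation *P* = 1.8e-04, adjusted 0.0027). Spearman's rho was 0.747 (permutation adjusted *P* = 0.0729), and r was 0.716 without the 2 libraries farthest from the median of *Gpd1*. *Mdh1* and *Got2* did so among 10 wt libraries (r 0.942, permutation *P* = 8e-05, adjusted 0.0024), with a rho of 0.879 (permutation adjusted *P* = 0.0459) and an r of 0.913 without the farthest 2. In the deposited values the r of these pairs was 0.8002 and 0.972. The other 28 pairs did not pass 0.01 by r, and the ages pooled within a genotype are part of this variation.

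**Figure D4:**
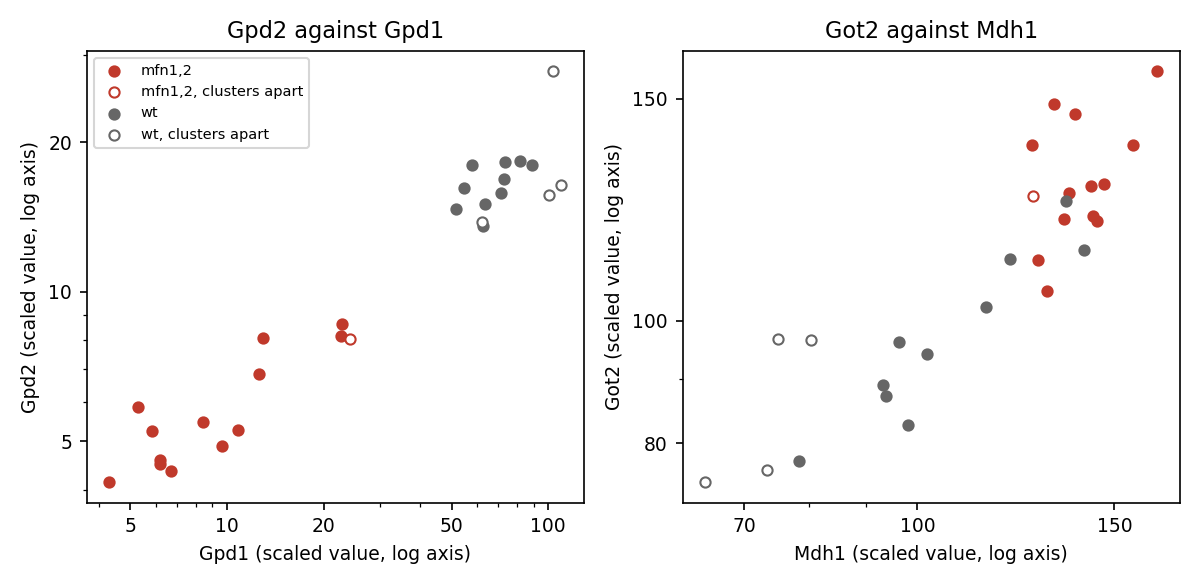
*Gpd2* against *Gpd1* and *Got2* against *Mdh1*, in scaled values on log axes, 1 point per library, red for *mfn1,2* and grey for wt, open where the library clusters apart. *Gpd1* and *Gpd2* separate the genotypes completely. With open points left out, they vary together among *mfn1,2* libraries by Pearson's r, as *Mdh1* and *Got2* do among wt libraries. Neither pair passed an adjusted *P* under 0.01 by Spearman's rho.

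The genes most alike to each enzyme were taken by the lower of the Spearman correlations within the genotypes, 14 libraries each, over 4647 named genes (4648 for *Gpd1l*) with a mean of at least 5. Libraries share their scaling and, unseen, their ages. For *Gpd1* these were *Hbb-bs* (0.758), a hemoglobin gene, *Reep1* (0.741), and *Casq1* (0.719), the calsequestrin of fast fibers. For *Gpd2* they were *Tbce* (0.688), *Sox6* (0.521), a transcription factor that represses slow-fiber genes, and *Arfgap1* (0.512), and for *Gpd1l* they were *Eif2s3x* (0.675) and *Matr3* (0.644). For *Mdh1* they were *Eapp* (0.771), *Atp5j2* (0.767), a subunit of ATP synthase, and *E4f1* (0.758). For *Got1* they were *Sdhaf2* (0.631), an assembly factor of succinate dehydrogenase, *Aqp1* (0.613) and *Vdac3* (0.604), and for *Got2* they were *Stom* (0.802), *Ndufa9* (0.697), a subunit of complex I, and *Mdp1* (0.684). No member was among the 3 most alike to another.

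Counts of list genes that rose or fell moved with the library scaling, as the median of all genes did. Each count below is therefore followed by those in the deposited values, at the same total and under *Actb* scaling, in this order. Over all genes tested, 6770, 8649 and 7152 rose and 538, 284 and 366 fell under these 3 scalings, beside 3055 and 2696 on the scale used. Of 10 markers of fast fibers 7 fell and 1 rose, while 4 fell under each of the 3 other scalings and 3, 4 and 2 rose. Their summed level was 18389 to 32898 in *mfn1,2* libraries and 17166 to 50361 in wt libraries. The largest falls were of *Actn3*, the α-actinin of fast fibers (log2 fold change −4.72), *Pvalb*, the calcium buffer parvalbumin (−3.96), *Casq1* (−2.66), and *Myh4*, the IIB myosin heavy chain (−2.31). *Myh1*, the IIX myosin, was the one that rose (0.62), a call lost on leaving out any of WT5, WT6, WT8, WT9, WT13, DM4 or DM11 and at 0.25 (adjusted *P* = 0.107 from limma) without the 5 libraries that clustered apart. Of 10 slow-fiber markers 7 rose and 0 fell, and the 3 other scalings had 10 of 10 higher, with a summed level of 127 to 555 in *mfn1,2* and 70.9 to 249 in wt libraries. By staining of TA sections the paper reported no notable change in fiber types. The part of fiber type in the change of the shuttle enzymes was not tested.

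*Gpd1* is also an abundant gene of fat cells. Of 8 adipocyte markers tested, 0 rose and 0 fell by limma, 1 had an unadjusted *P* under 0.05 (*Pck1*), and their summed level was 66.8 to 116 in *mfn1,2* and 56.5 to 117 in wt libraries. Under the 3 other scalings 5, 6 and 8 of them rose and 0 fell, where *Gpd1* itself fell. Most of the summed adipocyte level was *Fabp4*, at a mean of 63.8 in *mfn1,2* and 68.7 in wt muscle. *Adipoq* (0.921 in *mfn1,2* and 0.615 in wt muscle) and *Plin1* (0.545 and 0.467) were near the filter, so the sum says little about fat cells. Brown adipocyte markers, of interest for *Gpd2*, summed to 313.7 to 442 in *mfn1,2* and 310.3 to 489.5 in wt libraries. Of 4 tested 1 was higher and 0 lower, against 3 higher under each of the 3 other scalings and 0 at a mean of at least 5. Nearly all of that sum was *Cox8b*, at a mean of 358 in *mfn1,2* and 363 in wt muscle. *Ucp1* was listed at 0 in 13 *mfn1,2* and 14 wt libraries, so the sum is no measure of brown fat. Markers of red cells, of interest for the likeness of *Gpd1* to *Hbb-bs*, summed to 35.5 to 297 in *mfn1,2* and 54.6 to 409 in wt libraries, and 0 of 3 passed under any scaling, with 0 at an unadjusted *P* under 0.05. Of the markers of other cells, 8 of 10 endothelial, 7 of 8 macrophage and 5 of 10 fibroblast markers fell and 0 rose. None of these falls passed under the 3 other scalings, where 2, 4 and 2 endothelial, 0, 1 and 1 macrophage and 1, 2 and 1 fibroblast markers rose. Their part in the changes was not tested.

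Of 8 genes around lactate, pyruvate and cytosolic NADH, among them carriers and a glycolytic enzyme that forms NADH, 2 rose and 5 fell. Under the 3 other scalings 3, 4 and 2 rose and 4, 3 and 4 fell. *Ldha*, the muscle subunit of lactate dehydrogenase, averaged 74.8 ± 19.1 in *mfn1,2* and 273.9 ± 31.0 in wt muscle (log2 fold change −1.90), and *Ldhb*, the heart subunit, 146 ± 33.9 in *mfn1,2* and 28.7 ± 10.4 in wt muscle (2.39). *Slc16a3*, the lactate exporter MCT4, averaged 2.37 ± 4.19 in *mfn1,2* and 31.4 ± 9.43 in wt muscle (−4.69), and *Ldhd*, the D-lactate dehydrogenase, fell as well (−2.27). These 4 changes passed without overlap of the genotypes, beside 5.08% of all genes tested that separated downward and 6.15% upward. The 4 were named for the size of their change, and other genes of the list also separated. Each of the 4 kept its direction under every scaling, so *Gpd1* fell beside the lactate-forming subunit.

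Around glycerol 3-phosphate, the metabolite that *Gpd1* makes and *Gpd2* consumes, 2 of 7 genes rose and 4 fell, and under the 3 other scalings 3, 4 and 3 rose and 0 fell. *Gk*, glycerol kinase, which makes the same metabolite from glycerol, averaged 1.92 ± 0.570 in *mfn1,2* and 0.384 ± 0.184 in wt muscle (log2 fold change 2.10), a low level in both. *Gpat3*, which esterifies it toward triglyceride, averaged 7.43 ± 2.05 in *mfn1,2* and 1.35 ± 0.312 in wt muscle (2.35). *Tpi1*, which interconverts dihydroxyacetone phosphate with the next glycolytic intermediate, fell by 1.11 on the log2 scale, and its fall did not pass in the deposited values (−0.47, adjusted *P* = 0.0121 from limma), at the same total or under *Actb* scaling. *Pgp*, a phosphatase that acts on glycerol 3-phosphate, fell (−0.72) but turned positive at the same total (0.33) and under *Actb* scaling (0.11).

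Of the genes of other flavin-linked routes that, like GPD2, bring electrons to ubiquinone, 6 of 10 rose and 2 fell, with a median log2 fold change of 0.25. Under the 3 other scalings 7, 9 and 7 rose and 1, 0 and 0 fell. *Prodh*, proline dehydrogenase, averaged 5.91 ± 1.62 in *mfn1,2* and 1.72 ± 0.820 in wt muscle (1.80). *Etfb* (1.17) and *Etfa* (0.76), the electron transfer flavoprotein of fatty acid oxidation, rose too. *Sqor*, the sulfide oxidoreductase, fell (−1.31), though not past the threshold at the same total (−0.27) or under *Actb* scaling (−0.49).

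Aspartate and glutamate, the amino acids that *Got1* and *Got2* interconvert, feed other enzymes, of which 4 of 11 rose and 4 fell. Under the 3 other scalings 6, 9 and 7 of them rose and 0 fell. *Asns*, asparagine synthetase, averaged 29.4 ± 2.68 in *mfn1,2* and 0.457 ± 0.297 in wt muscle and was listed at 0 in 2 wt libraries, with a log2 fold change of 6.01 on the log2(value + 0.1) scale. *Pycr1* (3.82) and *Aldh18a1* (3.74), which make proline from glutamate, and *Cad* (1.31), which starts pyrimidine synthesis from aspartate, also rose. The rises of *Asns*, *Pycr1* and *Aldh18a1* were thus several times that of *Got1* on the log2 scale.

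Among genes for NAD itself, 5 of 10 rose and 1 fell, and under the 3 other scalings 8, 10 and 8 rose and 0 fell. *Nmrk2*, the muscle nicotinamide riboside kinase, averaged 70.4 ± 34.7 in *mfn1,2* and 19.6 ± 12.6 in wt muscle (log2 fold change 1.90), and *Nadsyn1* (1.32) and *Nampt* (0.53) rose. *Slc25a51*, the mitochondrial NAD carrier, fell (−0.40) but was positive in the deposited values (0.23), at the same total (0.64) and under *Actb* scaling (0.43). *Nnt*, the transhydrogenase of the inner membrane, was at 26.1 to 135 in *mfn1,2* libraries and at 0 to 18.1 in wt libraries, where it was listed at 0 in 3, and rose (4.70 on the log2(value + 0.1) scale, adjusted *P* = 4.81e-06 from limma).

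**Figure D5:**
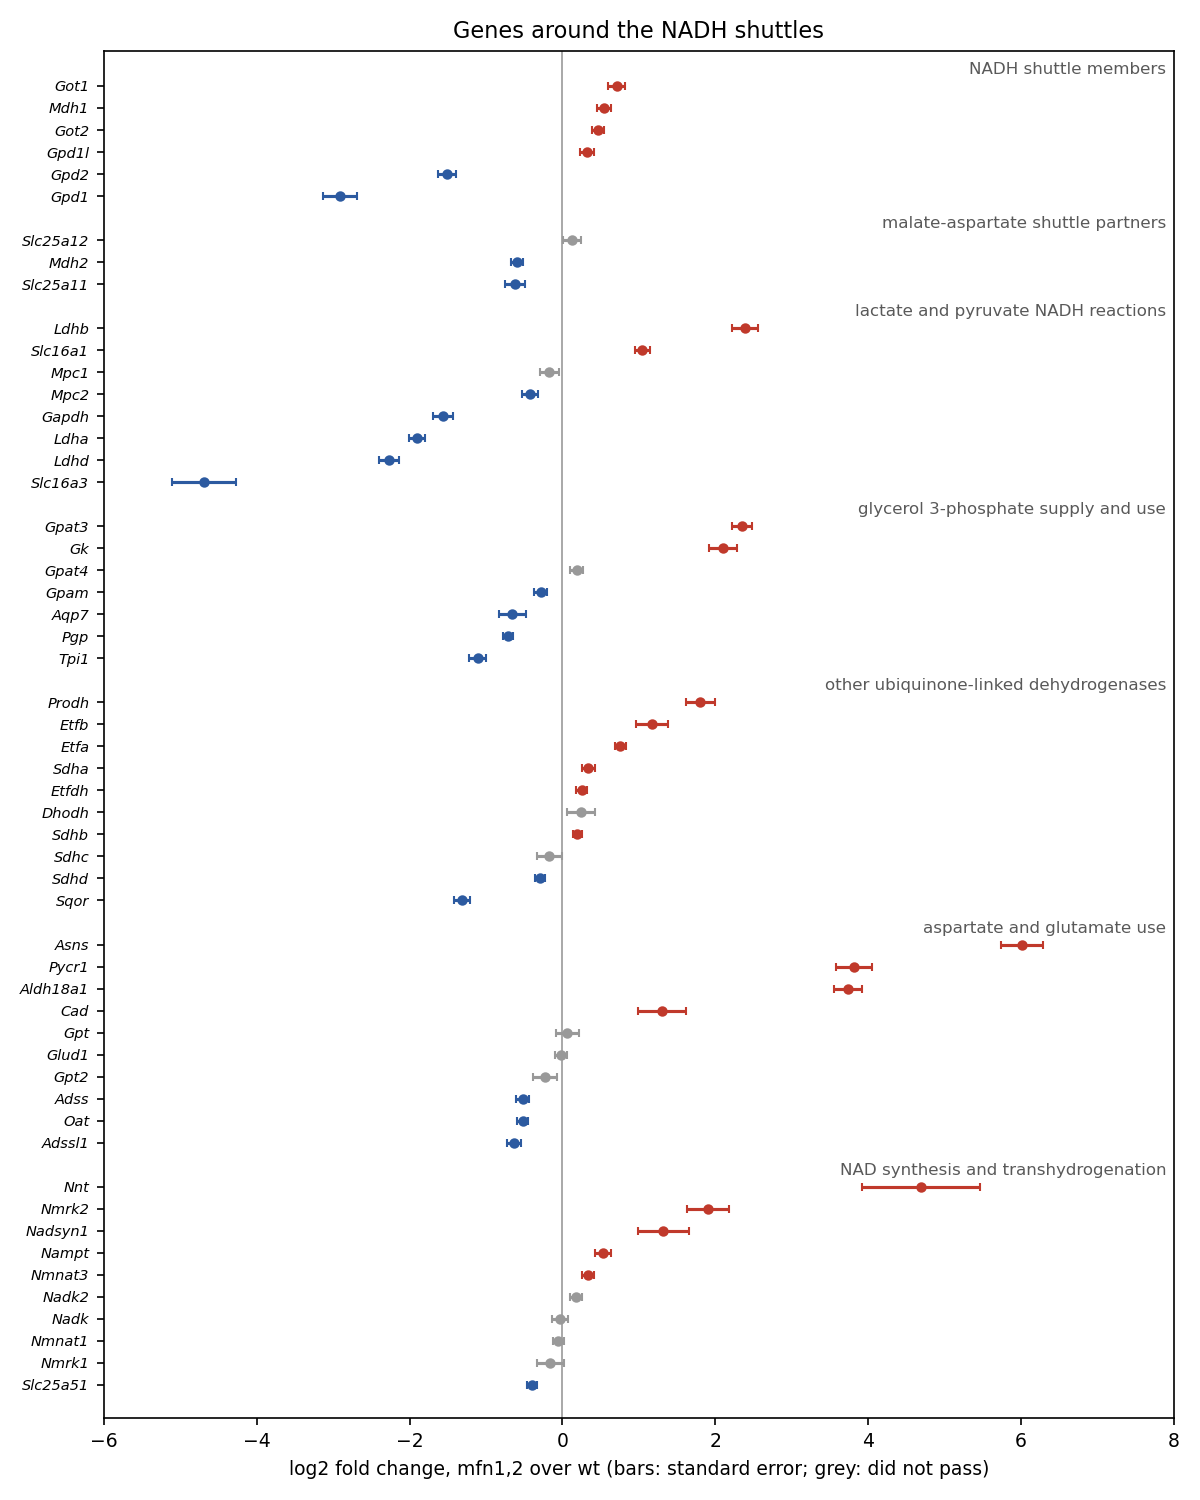
Log2 fold change of *mfn1,2* over wt muscle for the 6 enzymes and the tested genes of the 6 surrounding lists that are reported here, with bars of 1 standard error. Red genes rose, blue genes fell and grey genes did not pass an adjusted *P* under 0.01, all on the median-of-ratios scale. *Gpd1* lies with *Ldha*, *Ldhd* and *Slc16a3* among the larger falls, and *Mdh1*, *Got1* and *Got2* lie well below *Asns*, *Pycr1* and *Aldh18a1* among the rises.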

How the data were processed

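The authors made stranded total RNA libraries, 1 per mouse, and by the submitters' notes reads were trimmed with Trim Galore, aligned with HISAT2 to mm9 and processed with featureCounts and DESeq2 (versions not given). The deposited values are a signal per gene that the authors describe as normalized with DESeq2. Values were not whole and fell with exonic length (slope −1.02 over 262 genes at 0 in at least 8 libraries), so depth is unknown, reads were not recovered and no count test was run. Precision rests on the 14 libraries per genotype.

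Libraries were scaled by median-of-ratios factors, and log2(value + 0.1) of genes averaging 0.5 or more was fitted over the whole table with limma 3.58.1 in R 4.3.3 (lmFit, eBayes with trend), on genotype alone because the columns carry no age. Fold changes of low genes are understated on this scale. A 2-sided permutation test served for ratios and correlations (100000 resamples, Python 3.11.15, numpy 2.4.6). Spreads behind the adjusted *P* values include age. Steps were tested on simulated data. Alternatives were 5 scalings, pseudocounts of 1 and 0.01, no filter or a mean of at least 5, other variance models, and leaving out each library. The members, gene lists and tests were chosen with earlier results of these data known. Named genes are the 6 enzymes, their malate-aspartate partners, the 4 most changed passing genes of each list and the strongest against them, the 3 genes most alike to each enzyme, *Mfn1*, *Mfn2* and *Actb*. The genes *Pck1*, *Fabp4*, *Adipoq*, *Plin1*, *Cox8b*, *Ucp1*, *Immt*, *Got2-ps1*, *Wdpcp* and *Gm16537* were named after their values were seen. Some genes that this rule takes are not reported here.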

Additional observations from a re-analysis of the deposited data

How the results depend on the processing

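The directions of *Gpd1*, *Gpd2*, *Gpd1l*, *Mdh1*, *Got1* and *Got2* held under every alternative run. On leaving out each library in turn all 6 still passed, with ranges of −3.01 to −2.82 for *Gpd1*, −1.55 to −1.46 for *Gpd2*, 0.28 to 0.35 for *Gpd1l*, 0.50 to 0.59 for *Mdh1*, 0.66 to 0.76 for *Got1* and 0.44 to 0.49 for *Got2*. The calls that were lost were those of *Gpd2* at the same total (−0.47) and of *Gpd1l* under upper-quartile scaling (0.24) and without the 5 libraries that cluster apart (0.30), an alternative chosen after seeing the data. At a mean of at least 5 *Gpd1l* was under the filter. The 6 within-library ratios kept their side of the threshold throughout.

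Counts over all genes followed the scaling. Beside 3055 higher and 2696 lower genes, there were 6770 and 538 in the deposited values, 8649 and 284 at the same total, 7152 and 366 under *Actb* scaling, and 1719 and 1155 at a mean of at least 5, where fewer genes were tested. Genes that turned positive were *Mdh2* (0.045, 0.46 and 0.24), *Slc25a11* (0.021, 0.44 and 0.22) and *Slc25a51* (0.23, 0.64 and 0.43) in the deposited values, at the same total and under *Actb* scaling, *Mfn2* (0.40 and 0.18) and *Pgp* (0.33 and 0.11) at the same total and under *Actb* scaling, and *Actb* itself (0.22) at the same total. Which scaling is nearest to RNA per cell was not tested. No paired analysis was possible because the columns carry neither the ages nor the replicate numbers of the labels.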

Other observations

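The *mfn1,2* libraries with the highest *Gpd1* stood out for other genes too. DM1, DM8 and DM9, at 22.6, 24.1 and 22.9 for *Gpd1*, held 4.87, 16.0 and 4.38 of *Slc16a3*, the lactate exporter, where the next *mfn1,2* library had 1.27. They also held the 3 highest values of *Pvalb*, at 350.6, 508 and 252, and of *Casq1*, at 280.8, 659 and 401, although *Casq1* had been named for its likeness to *Gpd1* over these libraries. For *Actn3* they held 120.4, 194 and 85.4, and DM7, at 117, was above DM9. They had low values of *Nnt*, at 26.1, 30.2 and 31.6. All of these libraries were still below every wt library for *Gpd1*, *Slc16a3*, *Pvalb* and *Casq1*. These genes were picked after their values were seen. The ages of single libraries are not on the columns, so their part in this was not tested.

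*Nnt* divided the wt libraries. It was listed at 0 in WT1, WT2 and WT7, was at 0.374, 0.496 and 0.664 in WT12, WT11 and WT9, and ran over 6.61 to 18.1 in the other 8. *Nnt* is partly deleted in the C57BL/6J strain, and the share of that strain in each mouse was not analysed here.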
